A study of Mus musculus with 48 samples.

Results

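Transcripts of the liver and of mesothelium were followed in the RNA of 4 skeletal muscles of newborn mice. The genes were 7 that hepatocytes express (Alb, Afp, Ahsg, Apoa1, Apoa2, Fga and Fgb) and 3 named as mesothelial (Msln, Upk1b and Wt1), taken by symbol from the deposited gene tables, 10 of the 17490 genes in those tables. All 10 were in the tables of quadriceps (Quad), gastrocnemius (Gastroc) and diaphragm (Dia), and 9 were in the table of tibialis anterior (TA), where the authors list Wt1 among genes with under 10 counts. The study asked which genes change in each muscle upon loss of Myh3, which encodes the embryonic myosin heavy chain. Every group came from C57BL/6 mice at postnatal day 0, with 6 libraries each: MyH3+/+ (wild type, WT) and MyH3delta/delta (knockout, KO) in each of the 4 muscles, 48 libraries in all. The labels name no promoter, Cre line or deleted exon for the knockout allele. Muscles were frozen whole and total RNA went into poly(A)-selected, stranded libraries. The number of mice and the way the diaphragm was trimmed are not given in the sources used here.

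Hepatocytes make most plasma proteins, and at birth the liver still secretes alpha-fetoprotein beside albumin and is also a site of red blood cell formation. The abdominal surface of the diaphragm faces the liver. Both of its surfaces are covered by mesothelium, a flat cell layer that lines the body cavities, whereas limb muscles border no such cavity. In bulk RNA, fewer cells of a type and less RNA per cell cannot be told apart.

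Total counts per library ran from 11.9 to 24.3 M (median 16.1 M), with 12.3 to 21.4 M in Dia. Levels are counts per 1 M counts of the library's table (CPM). A library is called by its genotype and the number that its count column carries, 0 to 5. The sources do not tie these numbers to animals, so equal numbers in different muscles may not mark 1 mouse. Nothing in the labels says that replicates were separate animals, so p-values measure the spread between these samples. In the labelled muscles, 11 to 13 of 13 skeletal muscle markers (Ckm, Ttn, Myh8 and others) were measured, each at 10 CPM or more in every library of that muscle, and the authors' flag for high counts took Acta1 from all tables but Gastroc. In Dia, Myh3 stood at 1129 ± 268 CPM in the WT and 1541 ± 344 CPM in the KO libraries (SD, n = 6), and it passed the edgeR test in none of the 4 muscles. Whole-gene counts cannot show a partial deletion, so the genotype labels are unchecked.

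The liver genes were present in every diaphragm library, at levels that differed by up to 363-fold from library to library. Alb, the gene of albumin, the main carrier protein of plasma, was at 618, 3282, 194, 995, 1222 and 1267 CPM in WT columns 0 to 5. In KO columns 0 to 5 it was at 3565, 5399, 865, 372, 14.9 and 1785 CPM. The highest levels stood in KO columns 1 and 0 and in WT column 1, the lowest in KO column 4, and the WT range lay inside that of KO. The level in KO column 4 rested on 276 counts, with a 95% Wilson interval of 13.2 to 16.7 CPM, which covers counting error only.

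Afp, the fetal relative of albumin that lies beside it on chromosome 5, ran from 12.3 CPM in KO column 4 to 854 CPM in KO column 1, with medians of 306 CPM in KO and 256 CPM in WT. Ahsg, which encodes fetuin-A, an inhibitor of mineral deposition, ran from 31.4 to 1543 CPM (medians 665 in KO and 375 in WT). Apoa1, the main protein of high-density lipoprotein, ran from 9.16 to 540 CPM. These 3 genes had their lowest level in KO column 4 and their highest in KO column 1, as Alb did. Apoa2, the next most abundant protein of the same particle, ran from 0.916 to 94.0 CPM. Fga and Fgb, which encode the alpha and beta chains of the clotting protein fibrinogen, ran from 5.50 to 564 CPM and from 6.79 to 522 CPM. Together the 7 liver genes took from 0.0081% of the counts (KO column 4) to 0.952% (KO column 1) of a diaphragm library.

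Msln and Wt1 behaved otherwise: they were steady over the same 12 libraries. Msln, which encodes mesothelin, a surface glycoprotein of mesothelial cells, was at 89.8, 126, 102, 116, 132 and 120 CPM in WT columns 0 to 5. In KO columns 0 to 5 it was at 134, 86.4, 116, 133, 101 and 91.5 CPM, so that its highest and lowest library differed 1.55-fold. Wt1, a zinc finger transcription factor that marks mesothelium, was at 35.0, 36.0, 42.3, 46.8, 51.2 and 44.8 CPM in WT and at 45.0, 41.3, 43.4, 43.2, 38.8 and 31.9 CPM in KO, a 1.61-fold range. KO column 4, lowest in every liver gene, held 101 CPM of Msln and 38.8 CPM of Wt1, inside the range of the other libraries. An antisense gene, Wt1os, was counted at 1.86 to 5.02 CPM in Dia, and since the strand setting of the authors' counting is not stated, its reads and those of Wt1 cannot be told apart with certainty.

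Upk1b, a tetraspanin first known from the surface of the bladder and also made by mesothelium, followed neither pattern. It was at 91.5 and 136 CPM in KO columns 0 and 3 and at 132 and 99.5 CPM in WT columns 1 and 2. In the 8 other diaphragm libraries it was at 21.0 to 38.9 CPM.

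**Figure D1:**
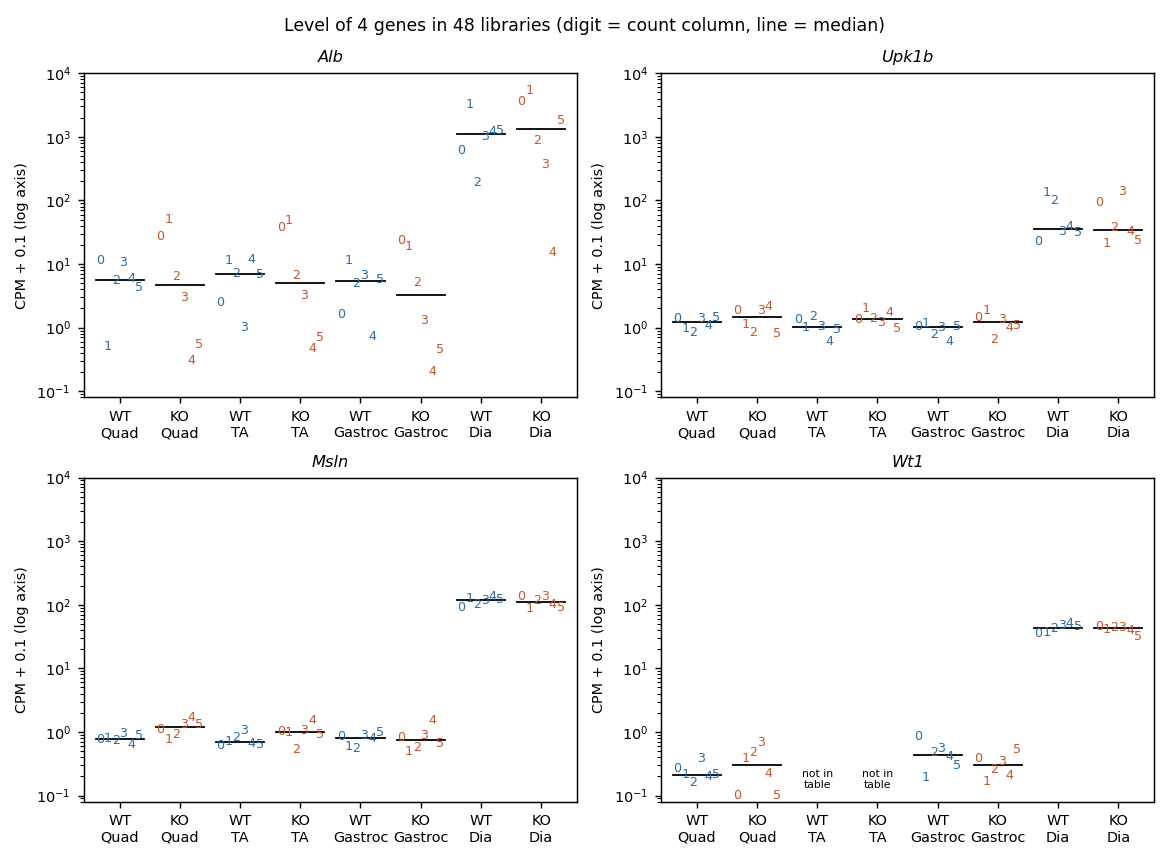
Levels (CPM + 0.1, log axis) of Alb, Upk1b, Msln and Wt1 in the 8 groups; each digit is 1 library, named by its count column, and the line is the group median. Alb spreads from 14.9 to 5399 CPM in Dia and from 0.107 to 49.1 CPM in the limb muscles, whereas Msln lies between 86.4 and 134 CPM in Dia and between 0.399 and 1.56 CPM in the limb muscles.

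Compared per kilobase of exon, Alb was the most abundant of the 10 genes in WT diaphragm, with a median level of 542 CPM per kb. Ahsg (254), Afp (123), Apoa1 (116), Fgb (67.5), Msln (55.9), Apoa2 (45.0), Fga (36.6), Upk1b (20.2) and Wt1 (7.03) followed on that scale. Every neighbouring pair in this order overlapped in CPM per kb over the 6 libraries except Upk1b and Wt1. In the library with least liver RNA, KO column 4, the order turned: Msln exceeded each liver gene per kilobase there.

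The liver genes kept similar proportions in most libraries while their sum varied. In 11 of the 12 diaphragm libraries Alb made up 41.7% to 56.7% of the counts of the 7 genes, Ahsg 14.1% to 21.5% and Afp 7.69% to 17.0%. KO column 4 was the exception. There Ahsg had 582 counts and Alb 276, and the share of Alb was 18.4% (95% Wilson interval 16.5% to 20.4%). Afp stood at 83.0 counts per 100 counts of Alb in that library, against 15.8 to 32.9 in the others. Apoa1 stood at 61.6 per 100 counts of Alb there, against 9.04 to 18.8 in the others. Trf, which encodes the iron carrier transferrin and is made by more tissues than the liver, was at 354 per 100 counts of Alb in KO column 4 and at 35.3 to 56.4 in the others.

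Smaller shifts in makeup stood between other libraries. WT column 4 had 32.9 counts of Afp but only 8.15 of Fga and 7.02 of Fgb per 100 counts of Alb, the lowest fibrinogen values of the 12 libraries. The enzyme genes Cps1 (first step of the urea cycle), Mat1a (synthesis of S-adenosylmethionine) and Tat (tyrosine breakdown) were at 1.80, 1.25 and 0.473 counts per 100 of Alb in KO column 0. Cps1 was at 10.4 and 11.6 in KO columns 2 and 3 and higher still in column 5. In columns 2, 3 and 5 Mat1a was at 9.23, 12.9 and 11.2 and Tat at 4.35, 6.11 and 3.66. The 6 WT libraries held 3.64 to 5.51 of Cps1, 1.59 to 6.03 of Mat1a and 0.190 to 1.51 of Tat. In KO column 4, at its low level of Alb, the 3 genes were at 47.8, 42.8 and 35.1. The 2 libraries richest in Alb, KO columns 0 and 1, held the least Cps1 and Mat1a per count of Alb of all 12.

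**Figure D2:**
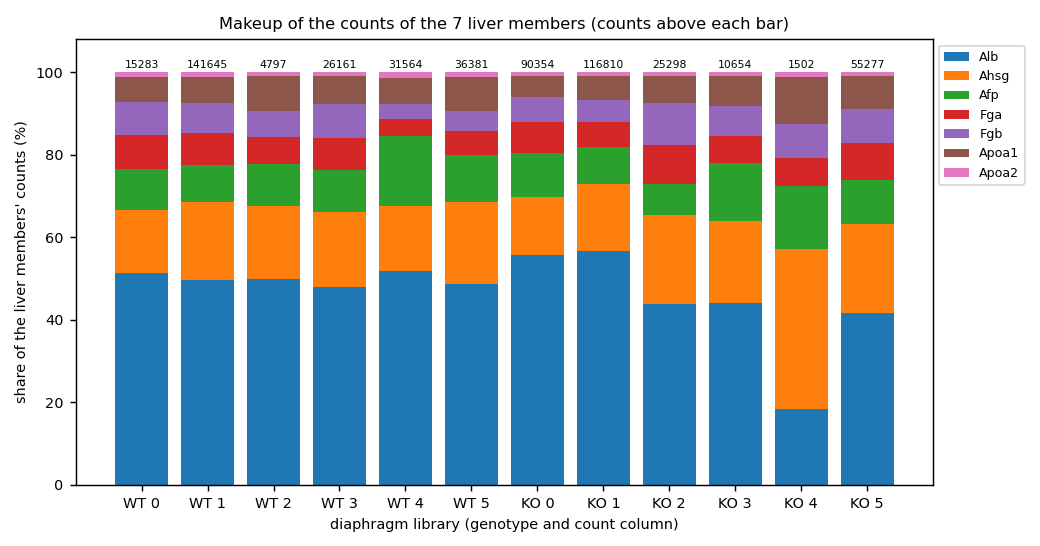
Share (%) of each liver gene in the summed counts of the 7 liver genes, for the 12 diaphragm libraries, with the summed counts above each bar. Alb takes 41.7% to 56.7% in 11 libraries and 18.4% in KO column 4, which has 1502 such counts.

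The upstream sequences of the liver genes were searched as a description, and those of Alb and Afp, neighbours of 1 family, are shown. No link between these sequences and the levels in the libraries was tested. RefSeq promoter windows (GRCm38.p6) were at hand for the 7 liver genes, and the 250 bases before the start were searched on both strands for TATAAA and CCAAT, general promoter motifs that do not overlap each other in these windows. TATAAA stood before Afp and in 1 of the 2 windows of Apoa2, and 12.4% of all 32851 promoter windows of that length hold it. CCAAT stood before Alb and Afp and in both windows of Apoa2, and 33.8% of all windows hold it. Neither stood in the windows of Fga, Fgb, Apoa1 and Ahsg. A match is a description of the letters and not a site of binding. The last 150 bases before the start are given 5′ to 3′ on the strand of the gene, with both motifs in capitals (ATTGG is CCAAT on the other strand), for Alb at chr5:90460720-90460869 (plus) and Afp at chr5:90490564-90490713 (plus).
Alb: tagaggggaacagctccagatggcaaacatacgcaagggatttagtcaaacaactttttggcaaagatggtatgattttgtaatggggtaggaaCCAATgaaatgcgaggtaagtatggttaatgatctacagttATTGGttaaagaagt
Afp: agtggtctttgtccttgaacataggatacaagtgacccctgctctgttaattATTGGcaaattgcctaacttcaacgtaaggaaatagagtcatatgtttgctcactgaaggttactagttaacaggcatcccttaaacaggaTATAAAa
CCAAT begins 56 and 15 bases before the start in Alb and 98 in Afp, and TATAAA begins 7 bases before the start in Afp. The start here is that of the RefSeq window. For Alb, Ahsg, Apoa1, Fgb and 1 of the 2 windows of Apoa2 it differs from the gene start that the authors give. That Apoa2 window ends at 171221563, and the Apoa1 window ends at 46228629, inside that gene. In the authors' tables (mm10) Alb spans 90460889 to 90476603 and Afp 90490714 to 90508907 on chromosome 5, and Fga 83026153 to 83033615 and Fgb 83042247 to 83049803 on chromosome 3. The other genes lie on chromosome 9 (Apoa1, 46228580 to 46230466), 1 (Apoa2, 171225054 to 171226379), 16 (Ahsg, 22892042 to 22899438, and Upk1b, 38773184 to 38800203), 17 (Msln, 25748614 to 25754327) and 2 (Wt1, 105126529 to 105173616).

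Over the 12 diaphragm libraries log2 CPM of Alb correlated with each of the 6 other liver genes. Pearson's r ran from 0.962 (Ahsg and Fgb) to 0.983 (Apoa2), with a two-sided permutation p of 1e-05 each, the smallest that 100000 resamples can give (1.5e-05 adjusted over the 9 relations computed). Spearman's rho ran from 0.909 (Fgb, permutation p = 0.00014) to 0.993 (Afp, 1e-05). Without the 2 libraries farthest from the median of Alb, KO column 4 and WT column 2, r was 0.897 to 0.979. Within KO it was 0.987 to 0.994 (exact permutation p = 0.00139 to 0.00278) and within WT 0.939 to 0.992 (exact permutation p = 0.00139 to 0.0264).

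For Msln the same relation gave r = 0.13 and rho = 0.098 (permutation p = 0.708 and 0.767), and r = -0.19 without the 2 farthest libraries. For Wt1 it gave r = 0.05 and rho = 0.063 (permutation p = 0.879 and 0.854), and r = -0.12 without them. Within genotypes r for Msln was -0.05 in KO (exact permutation p = 0.947) and 0.67 in WT (0.15), and for Wt1 0.10 and -0.07 (0.815 and 0.89). Upk1b fell into 2 separate clusters of libraries, so no r is given for it.

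**Figure D3:**
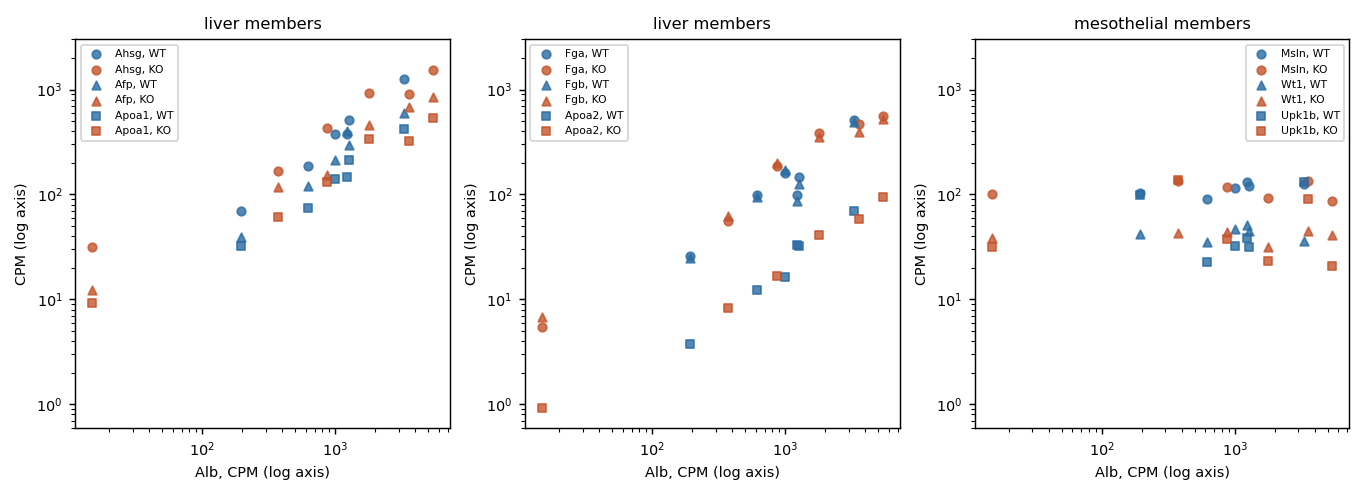
CPM of each other gene against CPM of Alb (both log axes) in the 12 diaphragm libraries, WT in blue and KO in orange. The 6 liver genes rise with Alb over its range of 14.9 to 5399 CPM, while Msln stays between 86.4 and 134 CPM and Wt1 between 31.9 and 51.2 CPM.

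Outside the 10 genes, those most like Alb over the 12 diaphragm libraries by Pearson's r of log2 CPM were Serpinf2, Serpinc1, Serpina1e, Apcs, Ttr, Fbp1, Kng1, Pzp, Proc and Cfi (r = 0.983 to 0.992). Of 14487 genes, 140 besides Alb, 0.966%, had r above 0.9. All 41 genes of a hepatocyte list were counted in Dia, among them the liver transcription factor gene Hnf4a, at 0.377 to 17.0 CPM. The summed level of that list ran from 145 to 5069 CPM in KO and from 303 to 4187 CPM in WT.

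Erythroid genes moved with the liver genes in part. Slc4a1, the anion exchanger of the red cell membrane, was at 17.7, 59.1, 8.26, 25.4, 16.2 and 19.2 CPM in WT columns 0 to 5. In KO columns 0 to 5 it was at 54.2, 47.3, 15.8, 20.3, 1.24 and 35.1 CPM, again highest in WT column 1 and KO columns 0 and 1 and lowest in KO column 4. Hemgn, a nuclear gene of red cell precursors, was at 0 counts in KO column 4, which allows up to 0.162 CPM, and at 5.46 CPM in WT column 1. The alpha globin gene Hba-a1, whose near-identical copy Hba-a2 may share its reads, ranged only from 58.6 to 129 CPM. Its highest levels were also in KO column 0, WT column 1 and KO column 1 (129, 105 and 90.8 CPM). KO column 4 was at 58.9 CPM, next to the lowest, KO column 5, at 58.6 CPM. In all, 17 of 20 erythroid genes were measured in Dia, with summed levels of 349 to 746 CPM in KO and 375 to 645 CPM in WT. Their part in the level of the liver genes was not tested.

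For Msln, the genes outside the 10 with the highest r were Bcr, Zbtb7c, Ano1, Cklf, Ptpn22, Add3, Sema3d, Prss12, Mblac2 and Phyhip (0.834 to 0.914). Only 2 of the 14487 genes passed 0.9. For Wt1 the list began with Myrf (0.90), Tmem151a and Mrpl48-ps and held Upk3b (0.80), a uroplakin of mesothelium, in the fifth place; none passed 0.9. All 14 genes of a mesothelium list were counted in every diaphragm library. Upk3b ran from 67.4 to 141 CPM and Lrrn4 from 22.9 to 48.9 CPM.

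The name mesothelial held less well for Upk1b than for Msln and Wt1. The 4 libraries with high Upk1b were those that held Krt5 and Krt15, keratins of the basal layer of stratified epithelia. Krt5 was at 106 to 173 CPM in these 4 libraries and at 0.0 to 0.326 CPM in the other 8, and Krt15 at 366 to 575 CPM against 0.0 to 0.978 CPM. Perp, Col17a1 and Dsg3, genes of epithelial junctions, went the same way, with 85.0 to 132, 60.5 to 107 and 10.9 to 25.6 CPM in the 4 libraries and at most 15.1, 12.9 and 0.0792 CPM in the others. Not all keratinocyte genes separated the libraries. Krt10 was at 2.21 to 3.40 CPM in the 4 libraries and at 1.90 to 3.50 CPM in the others. Trp63 was at 32.2 to 48.5 CPM and 12.4 to 38.3 CPM, so that its ranges overlapped.

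Krt7 and Krt19, keratins of simple epithelia that are on the mesothelium list, were at 87.5 to 141 and 106 to 146 CPM in the same 4 libraries and at 14.0 to 28.8 and 17.7 to 39.1 CPM in the others. The ratio of the medians was 3.66 for Upk1b, 1.20 for Msln, 1.01 for Wt1, 0.925 for Upk3b and 0.748 for Lrrn4. These libraries were set apart after their values were seen, so no test is given. The summed keratinocyte list, with 9 of 11 genes measured, ran from 47.0 to 931 CPM in KO and from 52.3 to 1098 CPM in WT. Its part in the level of Upk1b was not tested.

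**Figure D4:**
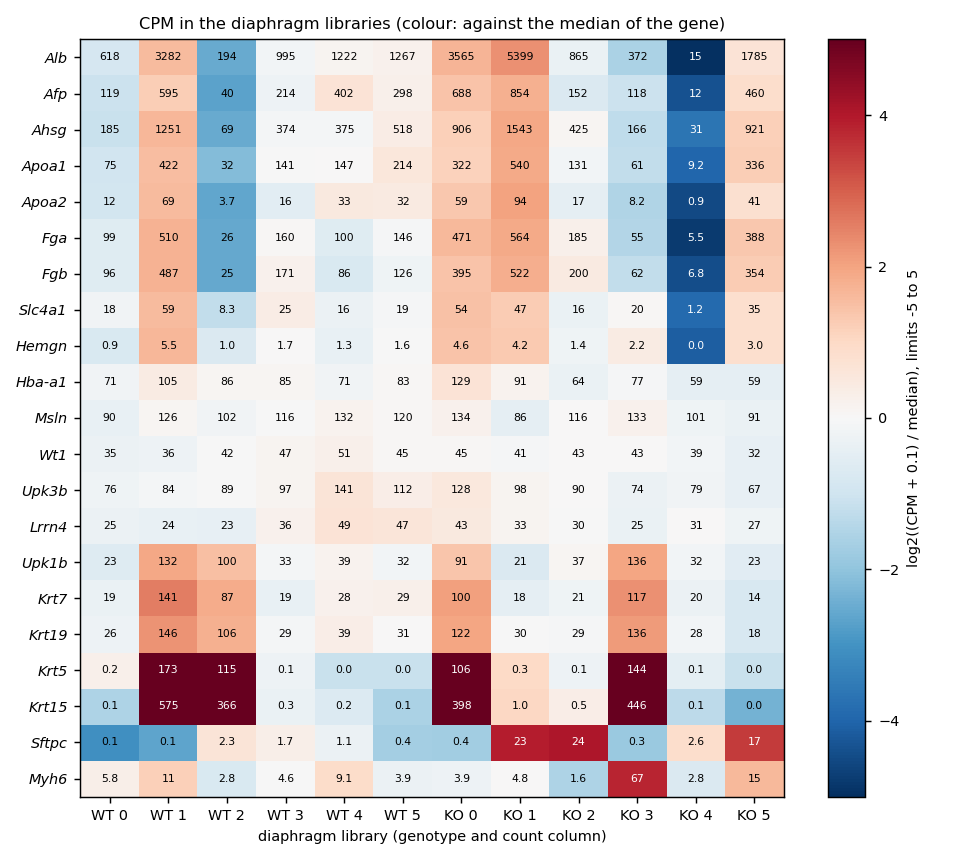
CPM (numbers) of the 10 genes and of genes of other cell types in the 12 diaphragm libraries, with colour for log2 of (CPM + 0.1) over the median of the gene. The liver genes and Slc4a1 are low in KO column 4 and high in WT column 1 and KO columns 0 and 1; Upk1b, Krt7 and Krt19 are high in the 4 libraries with Krt5; Msln and Wt1 vary least.

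In the limb muscles the same transcripts were at lower levels. Alb was at 0.107 to 49.1 CPM over the 36 limb libraries (2 to 879 counts), and the medians of the limb groups were 0.235% to 0.624% of the diaphragm median of the same genotype. Fga had 0 counts in 6 limb libraries and Fgb in 5. Msln was at 0.399 to 1.56 CPM (6 to 38 counts) and Wt1 at 0.0 to 0.740 CPM (0 to 12 counts) in Quad and Gastroc. Group medians in the limbs were 0.496% to 1.02% of the diaphragm median for Msln and 2.55% to 4.02% for Upk1b, and that of Upk1b was the highest of the 10 genes.

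Within the limb muscles the liver genes were again uneven. In KO, columns 0 and 1 held the highest Alb in each muscle, with 27.2 and 49.1 CPM in Quad, 38.1 and 48.7 CPM in TA and 22.9 and 18.6 CPM in Gastroc. The other 4 KO columns were at 0.205 to 6.33, 0.370 to 6.58 and 0.107 to 5.02 CPM in those muscles. Columns 0 and 1 were also the highest of KO in Dia. Below them, columns 2, 3, 5 and 4 followed in this order in each limb muscle, and column 4 was the lowest of KO in Dia as well. Column 5 had 0.443, 0.592 and 0.355 CPM in the limb muscles, although it was at 1785 CPM in Dia, the third of KO. In WT the order of the columns differed between muscles: column 1, the highest in Dia and Gastroc, had the lowest Alb in Quad, with 0.397 CPM. Equal WT numbers do not mark 1 mouse in every muscle, however, so this order does not compare animals throughout. The Y-linked gene Ddx3y was counted in WT column 1 of TA, Gastroc and Dia but in column 0 of Quad (985 counts). That Quad library had the highest Alb of its group, 11.1 CPM.

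In the 24 limb libraries with at least 100 counts over the 7 liver genes, the makeup was near that of the diaphragm. Alb took 40.3% to 58.9% (median 47.5%), Ahsg 15.0% to 24.3% and Afp 5.61% to 14.9%. Apoa2 took 0.377% to 5.80% there (median 2.50%), against 0.787% to 1.40% (median 0.982%) in Dia, and the ranges overlapped. These libraries were chosen by their liver counts, so their makeup was not tested against that of the diaphragm.

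The diaphragm exceeded the limb muscles for every gene that could be tested. In WT, 9 of the 10 genes entered the edgeR quasi-likelihood test of Dia against the mean of the 3 limb muscles, and all 9 were called higher in Dia at an adjusted p under 0.05 (Benjamini-Hochberg over all genes). Of all 14831 genes tested, 29.9% were called higher and 27.2% lower. The counts in Dia would have been enough for each of the 9 to pass the filter on low counts, so their number describes them and supports nothing further. Libraries were treated as independent.

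Fga had the largest of the 9 changes, a log2 fold change of 7.92 ± 0.40 (SE; adjusted p = 1.07e-14), followed by Fgb (7.87), Afp (7.78), Alb (7.74), Ahsg (7.62), Msln (7.45), Apoa1 (7.31), Apoa2 (6.29) and Upk1b (5.97). Among all genes they ranked from the second place (Fga) to place 27 (Upk1b), and the median of the 9 was 7.62, beside 0.00 over all genes. Msln had the smallest error, at 7.45 ± 0.09 (adjusted p = 2.24e-28), while Alb had 7.74 ± 0.44 (1.38e-13). Msln was 55.3 times higher in its lowest diaphragm library than in its highest limb library, Wt1 43.0 times and Upk1b 10.2 times. The ranges of the 12 diaphragm and the limb libraries overlapped for Alb and Apoa2. For these genes KO column 4, and no other diaphragm library, lay within the range of the limb libraries. How many of all genes lack such an overlap was not counted, so the ranges only describe the 10 genes.

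In KO the same 9 genes were called higher in Dia, where 26.3% of 14896 genes were called higher and 23.0% lower. The log2 changes ran from 5.47 ± 0.28 (Upk1b) to 8.06 ± 0.67 (Fga), with 6.95 ± 0.14 for Msln (adjusted p = 2.18e-21) and 7.45 ± 0.94 for Alb (4.22e-07). With the column number as a block, Alb had 7.81 ± 0.31 (3.77e-15). Without the 4 diaphragm libraries rich in Krt5, the change of Upk1b was 5.10 ± 0.14 in WT (adjusted p = 1.65e-18) and 4.54 ± 0.19 in KO (1.96e-14). Wt1, not in the TA table, was tested against the other limb muscles singly. In WT its log2 change was 8.28 ± 0.21 against Quad (adjusted p = 3.74e-12; 43.7% of all genes called) and 7.01 ± 0.25 against Gastroc (4.43e-11; 54.4% called). In KO it was 7.48 ± 0.36 (5.31e-09; 33.1% called) and 7.61 ± 0.23 (6.74e-11; 48.4% called). With the column number as a block, 7784 in place of 4790 genes were called against Quad in KO, and Wt1 had 7.48 ± 0.27 (4.97e-08). In WT 29.9% of all genes were called higher and 27.2% lower. Of the 14 genes of the mesothelium list 7 were tested in WT. Of these, 6 were called higher and 1 lower. Rspo1 (5.21 ± 0.19) and Gpm6a (4.69 ± 0.15) stood next to Krt18 (2.75 ± 0.15) and Nkain4 (2.66 ± 0.15). Of the hepatocyte list all 19 genes tested were called higher (Kng1 7.68, Fgg 7.63, Plg 7.42 and Itih2 6.33 in log2), and the 22 others were not in the test. Of the 20 erythroid genes 9 were tested, and 7 were called higher, Slc4a1 by 4.91 ± 0.26, and 2 lower. Of the 11 keratinocyte genes 5 were tested and 4 were called higher, Perp by 4.62 ± 0.41. Perp was highest in the 4 diaphragm libraries rich in Krt5.

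None of the 10 genes was called between the genotypes. Those tested did not pass KO against WT at an adjusted p under 0.05 by edgeR, DESeq2 or limma voom in any muscle, and at an unadjusted p under 0.05 by edgeR only Msln in Quad did. In Dia all 10 were tested and 1 of 14487 genes was called (0.0069%). In Quad 8 were tested and 0.0% of 14710 genes were called, although 1020 had an unadjusted p under 0.05 and DESeq2 called 71 and limma voom 16. In TA 8 were tested (0.0973% of all genes called) and in Gastroc 7 (0.157%).

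In Dia the log2 change of Alb was 0.75 ± 0.91 (adjusted p = 0.9996). Without KO columns 0 and 1, which held the highest Alb of KO, it was -0.70. Leaving out the highest KO values lowers this change by construction. The 6 other liver genes had values of 0.46 to 0.76, each smaller than its standard error. Msln was at -0.05 ± 0.11, Wt1 at -0.07 ± 0.12 and Upk1b at -0.08 ± 0.51 (adjusted p = 0.9996 each). The standard errors of Msln and Wt1 were thus far below those of the liver genes, 0.75 to 0.91.

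In Quad Alb ran from 0.205 over a median of 4.59 to 49.1 CPM in KO and from 0.397 over 5.55 to 11.1 CPM in WT. The log2 change was 1.22 ± 0.91 (adjusted p = 0.934 by edgeR) although the KO median was the lower. It was -1.36 without KO columns 0 and 1, the highest of KO, whose removal lowers it by construction. The 6 liver genes tested in Quad had positive log2 changes of 0.80 to 1.23, beside a median of 0.01 over all genes. Msln in Quad ran from 0.671 over 1.11 to 1.56 CPM in KO and from 0.544 over 0.669 to 0.848 CPM in WT, with 4 of 6 KO libraries above every WT library. Its log2 change was 0.68 ± 0.23 (unadjusted p = 0.0108, adjusted p = 0.495 by edgeR), at 12 to 38 counts per KO library.

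In TA and Gastroc the liver genes tested had log2 changes of 0.71 to 1.23 and 0.11 to 0.68, none larger than 1.5 times its standard error. Upk1b had 0.47 ± 0.25 in TA and 0.46 ± 0.26 in Gastroc (adjusted p = 0.745 and 0.839). A test of whether the effect of genotype was equal in the 4 muscles called none of the 9 genes in that fit, and 0.0133% of 15090 genes. The smallest unadjusted p was 0.0349, for Msln. In the authors' deposited table the log2 ratios of KO over WT for the 10 genes in Dia lay between -0.06 and 0.07, with DESeq2 adjusted p-values of 0.9998 throughout. For the liver genes these DESeq2 ratios were far smaller than the edgeR changes of 0.46 to 0.76. The 2 measures are unlike, and the reason for the gap was not tested.

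**Figure D5:**
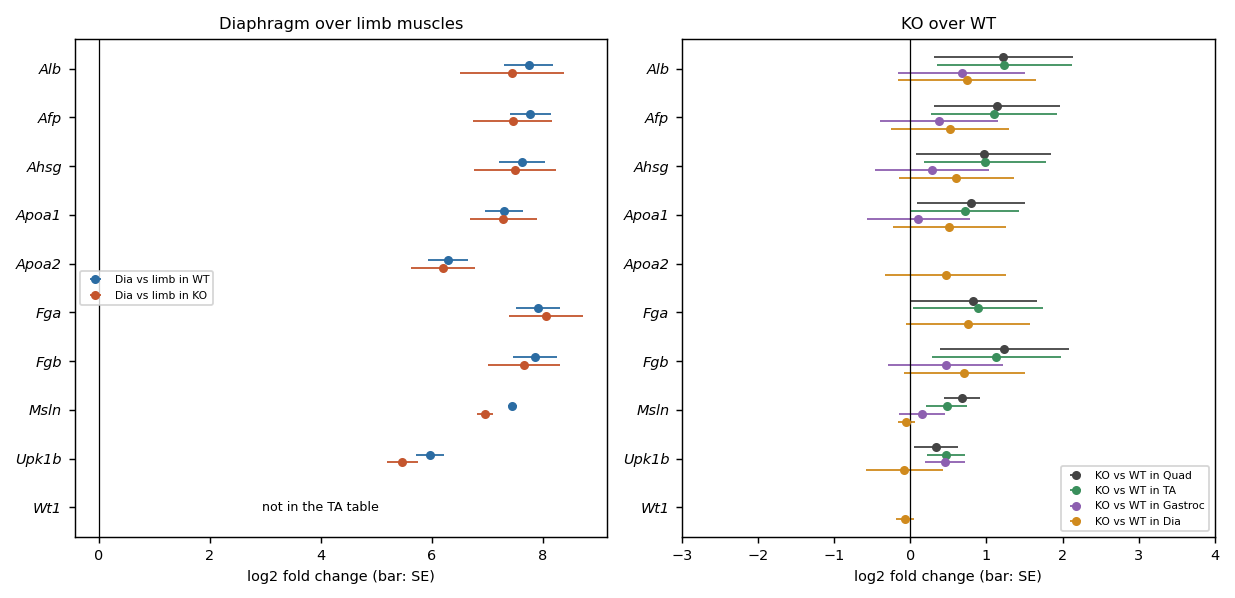
Log2 fold changes ± SE from edgeR of diaphragm over limb muscles (left, WT and KO) and of KO over WT in each muscle (right). The left values lie between 5.47 and 8.06, and in the right panel the bars of the liver genes are wide, with 0.75 ± 0.91 for Alb in Dia, beside -0.05 ± 0.11 for Msln.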

How the data were processed

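Deposited counts are, per the file headers, exon alignments summed by gene with USeq on mm10, with a read pair counted once. The submitters' processing notes also name Picard. The aligner and the strand setting are not given in the sources used here. The authors deposited log2 ratios and adjusted p-values from DESeq2, the latter as a score of -10 times log10, turned back into p-values here. The deposited tables also hold other columns, such as exonic base pairs, used for CPM per kb. Genes under 10 counts or flagged for high counts were left out by the authors. Another 96 columns of regularised log values and FPKM were not used.

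CPM used the library totals of each table. Models were run with edgeR 4.0.16 in R 4.3.3 (filterByExpr, TMM, quasi-likelihood, Benjamini-Hochberg at 0.05), per muscle for genotype and over the genes in all 4 tables for diaphragm against limb. Alternatives used DESeq2 1.42.0 and limma 3.58.1. Correlations used log2 CPM with a prior count of 2. Whether equal column numbers pair libraries was checked on the deviations of log2 CPM from group means over 12007 genes with a mean of at least 50 counts. In KO all 36 pairs between muscles had r above 0.1 (0.474 to 0.850), and each library was most like the one of its own number. The pairing thus comes from the data and not from the labels. Intervals are 95% Wilson intervals; 0 counts allow up to 3. The fits were tested on simulated data with the same dispersion for every gene. In Dia the SD of Alb was 105% of its mean in KO and 84.6% in WT. The simulation was not set to the spread of the liver genes and does not show how the fits perform on them. The genes, the 9 lists (hepatocyte, mesothelium, erythroid, lung epithelium, gut and pancreas, heart, fat, keratinocyte, skeletal muscle) and the tests were chosen with earlier results of these data known. Named were the 10 genes, up to 4 genes per list with the smallest p in WT diaphragm against limb, the 10 genes most like Alb and Msln, and Myh3; likeness to Wt1, the genes set beside them and the split by Krt5 were chosen after values were seen.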

Additional observations from a re-analysis of the deposited data

Results flagged for a closer look

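Of 78 groups of 6 libraries (1 gene in 1 group), 3 held a library that stood apart from the rest on the log2 scale by Dixon's criterion, which chance meets in about 1 of 20 groups. All 3 were WT column 1 of Quad, the lowest of its group. Alb was at 0.397 CPM (7 counts) there, beside a group median of 5.55 CPM. Ahsg was at 0.0568 CPM (1 count), beside 2.23 CPM. Fga was at 0.0 CPM (0 counts, which allows up to 0.170 CPM), beside 0.771 CPM. The same column number had the highest Alb of the WT libraries in Dia and Gastroc. It does not mark 1 mouse: the Y-linked gene Ddx3y was at 0 counts in WT column 1 of Quad and at 1035, 1556 and 1663 counts in that of TA, Gastroc and Dia.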

How the results depend on the processing

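Those of the 10 genes that were tested were all called higher in Dia than in limb muscle under each of the 18 alternatives in WT and 19 in KO, and none of them was called between genotypes under any alternative. The number of all genes called for Dia against limb in KO was 7344, and 4790 against Quad, 4226 against TA and 6969 against Gastroc alone. Counts called for KO against WT depended on the setting. In Quad 0 genes were called by edgeR, 8 with upper quartile factors, 7 without filter, 71 with DESeq2, 16 with voom, 133 without KO columns 0 and 1, 16 in a fit of all 48 libraries, and 0 to 2 when leaving out 1 library at a time. In TA 14 became 110 (DESeq2), 26 (voom), 219 (without KO columns 0 and 1) and 4 to 26 (1 library left out). In Gastroc 23 became 94 (DESeq2), 108 (without KO columns 0 and 1), 36 (48 libraries) and 4 to 29 (1 left out). In Dia 1 became 28 (DESeq2), 2 (voom), 72 (without KO columns 0 and 1), 16 (also without WT column 1), 30 (48 libraries), 0 to 4 (1 left out) and 0 without the 4 libraries with Krt5, an alternative chosen after seeing the data. The effect of genotype differed between muscles for 2 genes, and for 5 without KO columns 0 and 1. Alb in Dia turned from 0.75 to -0.70 without KO columns 0 and 1 and to -0.21 without WT column 1 as well. Alb in Quad turned from 1.22 to -0.80 with voom and to -1.36 without KO columns 0 and 1. Columns 0 and 1 held the highest Alb of KO in each muscle, so leaving them out lowers its change by construction. Upk1b in Dia turned from -0.08 to 0.26 without KO columns 0 and 1 and WT column 1, and ran from -0.49 to 0.29 with 1 library left out, with 0.08, 0.02, 0.04, 0.08, 0.29 and 0.14 above 0. The cause was not tested. Totals without hepatic genes moved the diaphragm medians by less than their SD. A replicate block by column number was added after seeing the data. In KO, where the numbers pair the libraries, it gave 10070 genes for Dia against limb, and 7784, 6974 and 9095 against Quad, TA and Gastroc alone. In WT, where 17 of 36 pairs between muscles had r above 0.1 (-0.522 to 0.784), it gave 8607. Between genotypes the numbers did not pair (r = -0.494 to 0.467), and the block gave 2 genes in Quad, 8 in TA, 1 in Gastroc, 0 in Dia and 6 for the difference between muscles, with Alb in Quad at -0.11. The block changed no call of the 10 genes. Wt1 had 0 to 12 counts per library in Quad and Gastroc, and its difference between limb muscles was not tested.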

Other observations

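Markers of other tissues near the diaphragm were high in some of its libraries. Sftpc, the surfactant protein gene of alveolar cells, was at 22.8, 24.4 and 16.8 CPM in KO columns 1, 2 and 5 and at 0.0788 to 2.64 CPM in the 9 other diaphragm libraries, and Sftpb went with it (4.11 to 6.55 CPM in those 3). The lung epithelium list, with 12 of 14 genes measured, summed to 21.7 to 63.1 CPM in KO and 12.7 to 41.5 CPM in WT. Part of these sums did not follow Sftpc. Ager was at 7.49 to 16.0 CPM in Dia and was not called against limb muscle (adjusted p = 0.652 in WT and 0.522 in KO by edgeR). Cbr2 was at 13.4 to 24.6 CPM in the 4 libraries with Krt5 and at 2.03 to 3.93 CPM in the others. Myh6, Myl7 and Nppa, genes of the atrial and neonatal heart, were at 67.0, 15.7 and 9.25 CPM in KO column 3, and at most 14.7, 4.34 and 0.215 CPM in the others. Myh6 was also counted in limb muscle. In WT it was called lower in Dia than in the limb muscles (log2 fold change -1.53 ± 0.19, adjusted p = 1.38e-07 by edgeR), and in KO it was not called (0.10 ± 0.43). The heart list summed to 764 to 972 CPM in KO and 882 to 1100 CPM in WT, most of it Sln, which skeletal muscle also expresses.

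Of 14 gut and pancreas genes 6 were measured, with sums of 2.43 to 7.61 CPM over both genotypes, and Gkn2, a stomach gene, reached 2.33 CPM in WT column 1, where Krt5 was at 173 CPM. The fat list, with 4 of 9 genes measured, summed to 226 to 499 CPM in Dia, most of it Fabp4 (216 to 474 CPM). Adipoq was at no more than 1.34 CPM in Dia. Among the KO libraries the sum of the fat list was highest in column 4 in each muscle, at 482, 367, 388 and 499 CPM in Quad, TA, Gastroc and Dia. In that Dia library Fabp4 was at 474 CPM and Adipoq at 0 counts. The libraries high in Sftpc, in Myh6, in Krt5 and in Alb were thus not the same set. These libraries were picked out after their values were seen, and no test is given.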
